A study of Mus with 17 samples.

Results

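Mitochondria carry a small genome of their own, and 6 of its protein-coding transcripts serve complexes III, IV and V of oxidative phosphorylation. They were followed here in the abdominal aorta of mice. mt-Cytb encodes cytochrome b of complex III, mt-Co1, mt-Co2 and mt-Co3 encode the core subunits of complex IV (cytochrome c oxidase), and mt-Atp6 and mt-Atp8 encode membrane subunits of complex V (ATP synthase). They were chosen by identifier, with no measured value in the rule: ENSMUST00000082421 (mt-Cytb), ENSMUST00000082402 (mt-Co1), ENSMUST00000082405 (mt-Co2), ENSMUST00000082409 (mt-Co3), ENSMUST00000082408 (mt-Atp6) and ENSMUST00000082407 (mt-Atp8). The deposited files hold identifiers only, so the gene names are those that came with this list. Of 45780 transcripts listed in at least 1 file, 39614 were in all 17 files, and these included 5 of the 6. ENSMUST00000082407 (mt-Atp8) was in none of the 17 and is not analysed here.

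The mice were C57BL/6 wild type. The Control group (n = 5) received saline and double distilled water for 42 days. The AngII group (n = 6) received angiotensin II, a hormone that constricts vessels and raises blood pressure, at 500 ng/kg/min with double distilled water, and the AngII+neferine group (n = 6) received the same infusion with neferine, an alkaloid of lotus seed, at 1 mg/kg/day, both for 42 days. The stated aim was to find the genes and pathways that differ between these groups. The labels do not say whether a sample came from 1 animal, so every p measures only the spread between these samples.

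Mitochondrial messenger RNAs are cut out of long precursor transcripts that span many genes, so their levels often move together. In the RefSeq table of assembly GRCm38.p6 the genes stand in the order COX1, COX2, ATP8, ATP6, COX3 and, further on, CYTB. The reading frames of ATP8 and ATP6 overlap, and both are translated from 1 messenger RNA that is followed directly by COX3. Copies of mitochondrial sequence also lie in the mouse nuclear genome, and reads from the 2 sources can be hard to assign. In the vessel wall, respiration provides much of the ATP of smooth muscle, while perivascular brown fat and striated muscle are richer in mitochondria than the wall itself.

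The values are an abundance signal per transcript whose unit no header names. The summed signal of a file lay between 392615 and 446577 in 14 libraries and was 522609, 542841 and 569873 in AngII replicates 2 and 6 and AngII+neferine replicate 1. The read depth behind the values is unknown. It is also not stated whether the signal is divided by transcript length, so levels are compared between libraries and not between genes. AngII replicate 6 stood apart in having 16.4% of the shared transcripts listed at 0, against 4.39% to 10.1% in the other libraries. The AngII+neferine files form a set of 41642 listed transcripts, and the Control and AngII files 1 of 43752, so whether a value goes with neferine or with the other set of files cannot be told apart. Markers of smooth muscle, endothelium, fat, striated muscle and blood could not be looked up because no table pairs the identifiers with symbols. Their part in the results was not tested, and fewer cells of a type and less RNA per cell cannot be told apart in such bulk samples.

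mt-Co1, mt-Co2, mt-Co3 and mt-Cytb had some of the highest listed signals, and mt-Atp6 was near 0 in all but 1 library. Ranks are given for where a signal stands in its file, and are no comparison of RNA amounts between genes. mt-Co1 had the highest signal of all listed transcripts in 17 of 17 libraries. mt-Co2 ranked between 3 and 9 and mt-Co3 between 6 and 13. mt-Cytb had a median rank of 2, but ranked 11079 in Control replicate 4. mt-Atp6 had a median rank of 35976 and ranked 24 in AngII replicate 4.

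mt-Co1, which encodes the catalytic subunit of cytochrome c oxidase, had a signal of 10377, 11738, 13480, 19237 and 11397 in Control replicates 1, 2, 4, 5 and 6. In AngII its lowest value was 7448, its median 10736 and its highest 34718. With neferine the lowest was 9482, the median 11233 and the highest 31687. The AngII and AngII+neferine ranges both took in the whole Control range. The high ends were single libraries, AngII replicate 2 and AngII+neferine replicate 1, and Control replicate 5 and AngII+neferine replicate 5 (19386) were the next highest.

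mt-Co2 encodes the subunit that takes up electrons from cytochrome c. Its signal was 4635, 4625, 6214, 7755 and 4534 in Control replicates 1, 2, 4, 5 and 6. In AngII its lowest value was 3054, its median 4476 and its highest 13329, and the AngII+neferine libraries ran from 4031 to 15569 with a median of 5015. The groups overlapped over the whole Control range, and the same libraries were at the top as for mt-Co1, joined by AngII replicate 6 at 8177.

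mt-Co3 encodes the remaining core subunit of the oxidase. Its signal was 3890.2, 3559.6, 5129, 6305 and 3445 in Control replicates 1, 2, 4, 5 and 6. In AngII it lay between 2479 and 11342, with a median of 3586. With neferine it lay between 3501 and 13516, with a median of 4106. Here too the groups overlapped, with AngII replicate 6 at 6965 again close to the high libraries.

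mt-Cytb encodes the subunit of complex III that carries both quinone-binding sites. Its signal was 6657, 6599.8, 4.04, 11892 and 6866 in Control replicates 1, 2, 4, 5 and 6. In AngII it lay between 4554 and 20237, with a median of 6409, and with neferine between 5399.7 and 17460.1, with a median of 6649.8. Control replicate 4 is therefore far below the other 16 libraries, whose lowest value was 4554. Among the other 4 Control libraries the mean was 8004 ± 2595 (SD, n = 4). The AngII mean was 8561 ± 5854 (SD, n = 6) and the AngII+neferine mean 9075 ± 4716 (SD, n = 6).

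mt-Atp6, which encodes the subunit of ATP synthase that forms the proton channel with the rotor ring, lay between 0.160 and 0.278 in 16 of the 17 libraries. In AngII replicate 4 its signal was 1679.6, which was 0.398% of that library. The 5 Control values lay between 0.160 and 0.205 and the 6 AngII+neferine values between 0.194 and 0.262. The groups overlapped, and the AngII group mean is set by 1 library. Because it reached a value of 1 in a single library, mt-Atp6 did not enter the test across transcripts.

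**Figure D1:**
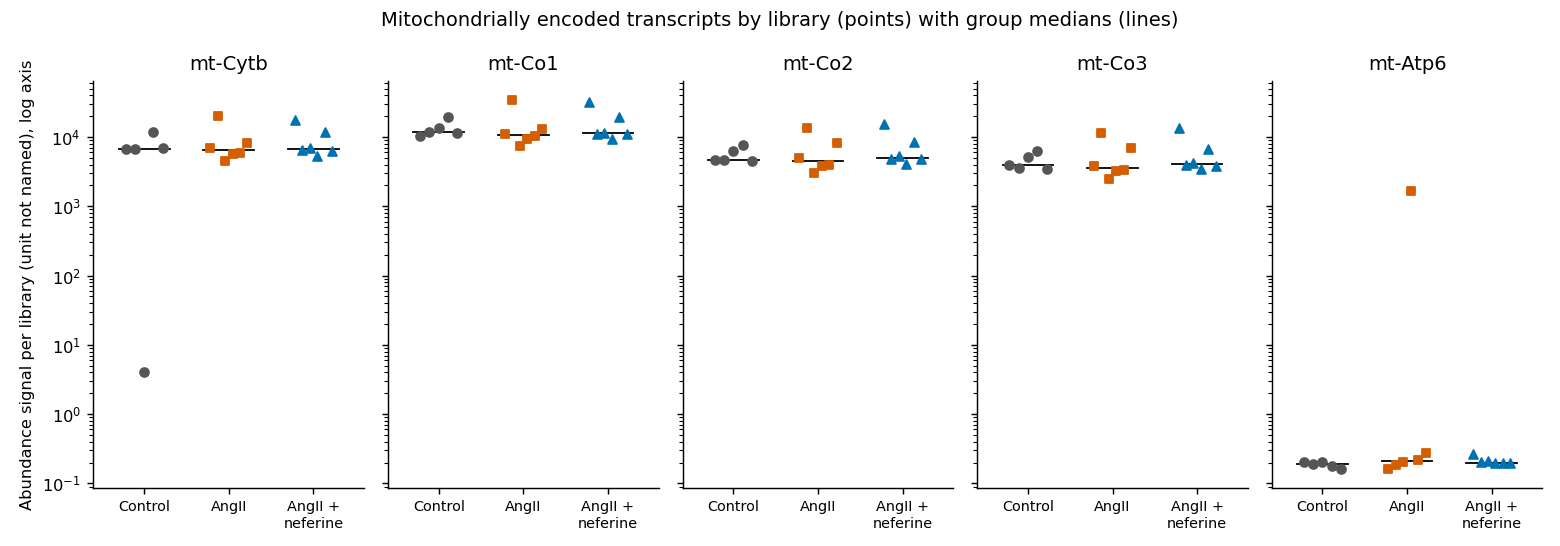
Signal of the 5 listed transcripts (y axis, log scale, unit not named) in each library (points) of Control (n = 5), AngII (n = 6) and AngII+neferine (n = 6), with group medians as lines. mt-Cytb drops to 4.04 in 1 Control library and mt-Atp6 rises to 1679.6 in 1 AngII library, while the other values of each transcript overlap between groups.

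Such a drop was rare among highly abundant transcripts. Of 32 transcripts with a median signal of at least 1000 over the 17 libraries, 2 had a library under 1% of that median, mt-Cytb in 1 library and ENSMUST00000112176 in 3. This count was chosen after the values of mt-Cytb were seen. A search for a transcript that took the opposite course in Control replicate 4 found 0 with a signal over 500 there and under 1/20 of it in every other library. For AngII replicate 4, where mt-Atp6 was high, 0 were over 500 in every other library and under 1/20 of their lowest value there. A smaller change, or one spread over several transcripts, would not be found this way. Transcripts that the files leave out, mt-Atp8 among them, are outside this search. The cause of either change was not tested.

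Together the 5 listed transcripts made up 7.05% ± 1.87 (SD, n = 5) of the library signal in Control. The AngII mean was 7.33% ± 3.96 (SD, n = 6) and the AngII+neferine mean 8.11% ± 3.26 (SD, n = 6). The Control libraries held 6.03%, 6.76%, 5.59%, 10.3% and 6.59% (replicates 1, 2, 4, 5 and 6). The AngII libraries held between 4.32% and 15.2%, with a median of 6.06%, and the AngII+neferine libraries between 5.52% and 13.7%, with a median of 6.37%. The group medians thus differ by far less than the libraries within any group. The share of Control replicate 4 lacks mt-Cytb. mt-Co1, mt-Co2 and mt-Co3 alone, which have no such gap, made up 5.52% ± 1.23 (SD, n = 5) in Control. Their AngII mean was 5.44% ± 2.98 (SD, n = 6) and their AngII+neferine mean 6.16% ± 2.55 (SD, n = 6).

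By member, mt-Co1 held 3.14% ± 0.731 (SD, n = 5) of the library signal in Control, and the AngII and AngII+neferine means were 3.04% ± 1.79 (SD, n = 6) and 3.37% ± 1.29 (SD, n = 6). mt-Cytb held 1.54% ± 0.974 (SD, n = 5), 1.82% ± 1.02 (SD, n = 6) and 1.96% ± 0.722 (SD, n = 6), and without Control replicate 4 the Control value was 1.92% ± 0.530 (SD, n = 4). mt-Co2 held 1.32% ± 0.279 (SD, n = 5), 1.31% ± 0.661 (SD, n = 6) and 1.53% ± 0.674 (SD, n = 6). These 3 were alike in that the SD within AngII and AngII+neferine was larger than any difference between group means. mt-Co3 held 1.06% ± 0.241 (SD, n = 5), 1.09% ± 0.574 (SD, n = 6) and 1.26% ± 0.588 (SD, n = 6), with the same relation of spread to difference.

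**Figure D2:**
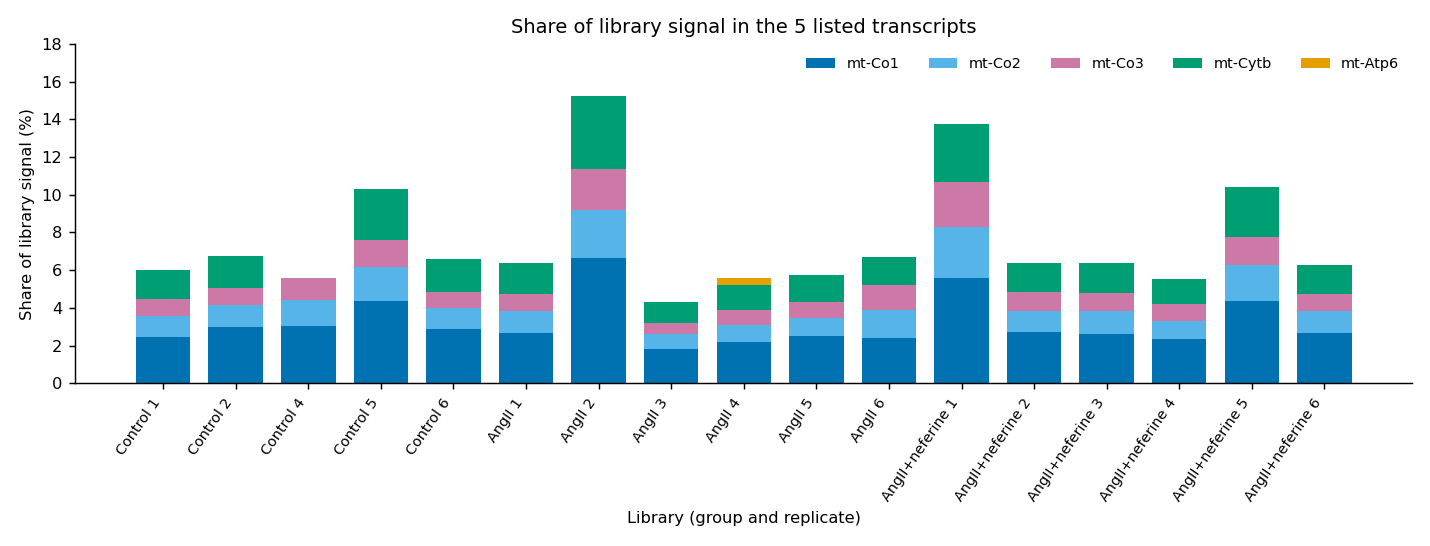
Share of library signal (y axis, percent) of the 5 listed transcripts, stacked, in each of the 17 libraries (x axis). AngII replicate 2 at 15.2% and AngII+neferine replicate 1 at 13.7% are the tallest bars, Control replicate 5 and AngII+neferine replicate 5 reach 10.3% and 10.4%, and the other 13 libraries lie between 4.32% and 6.76%.

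In 4 libraries mt-Cytb, mt-Co1, mt-Co2 and mt-Co3 were raised together most strongly over the rest of their group. In AngII replicate 2 the signal was 3.48-fold (mt-Cytb), 3.35-fold (mt-Co1), 3.39-fold (mt-Co2) and 3.35-fold (mt-Co3) the median of the other AngII libraries, while the summed signal of all other transcripts was 1.13-fold. In AngII+neferine replicate 1 the folds over the rest of its group were 2.70 for mt-Cytb, 2.84 for mt-Co1, 3.27 for mt-Co2 and 3.38 for mt-Co3, and 1.27 for all other transcripts. Control replicate 5 was 1.66-fold to 1.79-fold and AngII+neferine replicate 5 1.66-fold to 1.85-fold above the rest of their groups in these 4, with the other transcripts at 1.02-fold and 1.03-fold. In 2 other libraries the 4 transcripts diverged. AngII replicate 6 was 2.08-fold for mt-Co2 and 2.06-fold for mt-Co3 but 1.26-fold for mt-Co1 and 1.40-fold for mt-Cytb, with the other transcripts at 1.29-fold. Control replicate 4 was 1.17-fold to 1.38-fold for the 3 oxidase transcripts and 5.98e-04-fold for mt-Cytb. The 4 libraries with the largest joint rise thus lay in every group, 1 or 2 in each, the saline group included. No threshold for a raised signal was set beforehand. Besides AngII replicate 6, smaller rises in all 4 transcripts were seen in AngII replicate 1 (1.07-fold to 1.28-fold) and AngII+neferine replicate 3 (1.01-fold to 1.11-fold).

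AngII was compared with Control to ask whether angiotensin II changed these transcripts, and no difference was detected. The log2 difference of AngII from Control was -0.06 ± 0.37 (SE) for mt-Co1, with a 95% interval of -0.84 to 0.72 (limma, adjusted p = 0.980). For mt-Co2 it was -0.0024 ± 0.39, with an interval of -0.82 to 0.82 (limma, adjusted p = 1.000), and for mt-Co3 0.04 ± 0.40, with an interval of -0.80 to 0.89 (limma, adjusted p = 0.986). These intervals leave room for a change of somewhat less than 1 on the log2 scale in either direction. For mt-Cytb the difference was 2.06 ± 1.46 (SE), with an interval of -1.01 to 5.14 (limma, adjusted p = 0.783), and without Control replicate 4 it was -0.05 ± 0.40 (limma, adjusted p = 0.981).

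Of the 4 members tested limma called 0 at an adjusted p under 0.05, as it did for 0% of all 29983 transcripts. None of the 4 had an unadjusted p under 0.05 in limma or in two-sided exact permutation tests. In limma 2175 of the 29983 transcripts did, and 0 of 4 cannot be told apart from that share. The exact permutation tests were run on the members alone and have no such background. The groups did not overlap in 0 of the 4, against 0.807% of all transcripts. On the scale of library shares the differences were -0.17 ± 0.30 (SE) for mt-Co1, -0.11 ± 0.31 for mt-Co2, -0.06 ± 0.32 for mt-Co3 and 1.95 ± 1.44 for mt-Cytb, again with 0 called (limma, adjusted p from 0.777 to 0.974; background 0%). The median over all transcripts was -0.03 for levels and -0.09 for shares.

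The estimate depended on the libraries that stand apart. Without AngII replicates 2 and 6 and AngII+neferine replicate 1, AngII was lower than Control by log2 differences of -0.45 ± 0.22 (SE) for mt-Co1, -0.48 ± 0.23 for mt-Co2 and -0.45 ± 0.22 for mt-Co3 (limma, adjusted p from 0.679 to 0.683). The intervals then reached from -0.92 to 0.02, from -0.97 to 0.02 and from -0.92 to 0.02. On shares of library signal all 3 intervals lay below 0. They ran from -0.86 to -0.0156 for mt-Co1, -0.89 to -0.0315 for mt-Co2 and -0.84 to -0.0308 for mt-Co3. The limma p on shares was 0.0432, 0.0373 and 0.0369 before adjustment and 0.646 to 0.663 after it. None of these passed, and the remaining 4 AngII libraries held 4.03% ± 0.655 (SD, n = 4) of their signal in mt-Co1, mt-Co2 and mt-Co3, against 5.52% ± 1.23 (SD, n = 5) in Control. The 3 libraries were known from their high summed signal, which includes the members, and AngII replicate 2 had the highest member share of all, while Control replicate 5, at 10.3%, was kept. The lower AngII values are therefore in part fixed by that choice and are given as a description.

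AngII+neferine was compared with AngII to ask whether neferine changed the transcripts under the infusion, and again no difference was detected. The log2 difference was 0.19 ± 0.35 (SE) for mt-Co1, with a 95% interval of -0.55 to 0.94 (limma, adjusted p = 0.979). It was 0.22 ± 0.37 for mt-Co2, with an interval of -0.56 to 1.01 (limma, adjusted p = 0.979). mt-Co3 gave 0.22 ± 0.38, with an interval of -0.58 to 1.02 (limma, adjusted p = 0.979), and mt-Cytb 0.15 ± 1.39, with an interval of -2.79 to 3.08 (limma, adjusted p = 0.998). The 3 groups share 1 estimate of the spread, and without Control replicate 4 the mt-Cytb interval ran from -0.62 to 0.91.

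Limma called 0 of these 4 and 0% of all transcripts, on levels as on shares (background 0% for both). None of the 4 had an unadjusted p under 0.05 in limma or in exact permutation tests. In limma 1564 of the 29983 transcripts did, a share from which 0 of 4 cannot be told apart. The groups did not overlap in 0 of the 4, against 0.263% of all transcripts. The share differences were 0.22 ± 0.29 (SE) for mt-Co1, 0.25 ± 0.30 for mt-Co2, 0.24 ± 0.30 for mt-Co3 and 0.17 ± 1.37 for mt-Cytb (limma, adjusted p = 1.000 for each). Without AngII+neferine replicate 1 alone the level differences turned to between -0.07 and -0.04. Without that library and AngII replicates 2 and 6 they were 0.35 ± 0.22 (SE) for mt-Co1, 0.44 ± 0.23 for mt-Co2 and 0.44 ± 0.22 for mt-Co3 and did not pass (limma, adjusted p from 0.728 to 0.793). This comparison shares its AngII libraries with that of AngII against Control, so opposite signs in the pair are not independent.

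AngII+neferine was compared with Control to ask whether the transcripts differed from saline when both agents were given. The log2 difference was 0.13 ± 0.37 (SE) for mt-Co1, with a 95% interval of -0.65 to 0.92 (limma, adjusted p = 0.948), 0.22 ± 0.39 for mt-Co2, with an interval of -0.60 to 1.04 (limma, adjusted p = 0.908), and 0.26 ± 0.40 for mt-Co3, with an interval of -0.58 to 1.11 (limma, adjusted p = 0.889). mt-Cytb gave 2.21 ± 1.46 (SE), with an interval of -0.87 to 5.29 (limma, adjusted p = 0.709), and 0.09 ± 0.40 without Control replicate 4. Of the 4 members 0 were called, with 0.0367% of all transcripts called on levels and 0.00667% on shares. None of the 4 had an unadjusted p under 0.05 in limma or in exact permutation tests. In limma 2622 of the 29983 transcripts did, a share from which 0 of 4 cannot be told apart. The groups did not overlap in 0 of the 4, against 2.08% of all transcripts. On shares the differences were 0.05 ± 0.30 (SE) for mt-Co1, 0.14 ± 0.31 for mt-Co2, 0.18 ± 0.32 for mt-Co3 and 2.12 ± 1.44 for mt-Cytb (limma, adjusted p from 0.721 to 0.976).

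**Figure D3:**
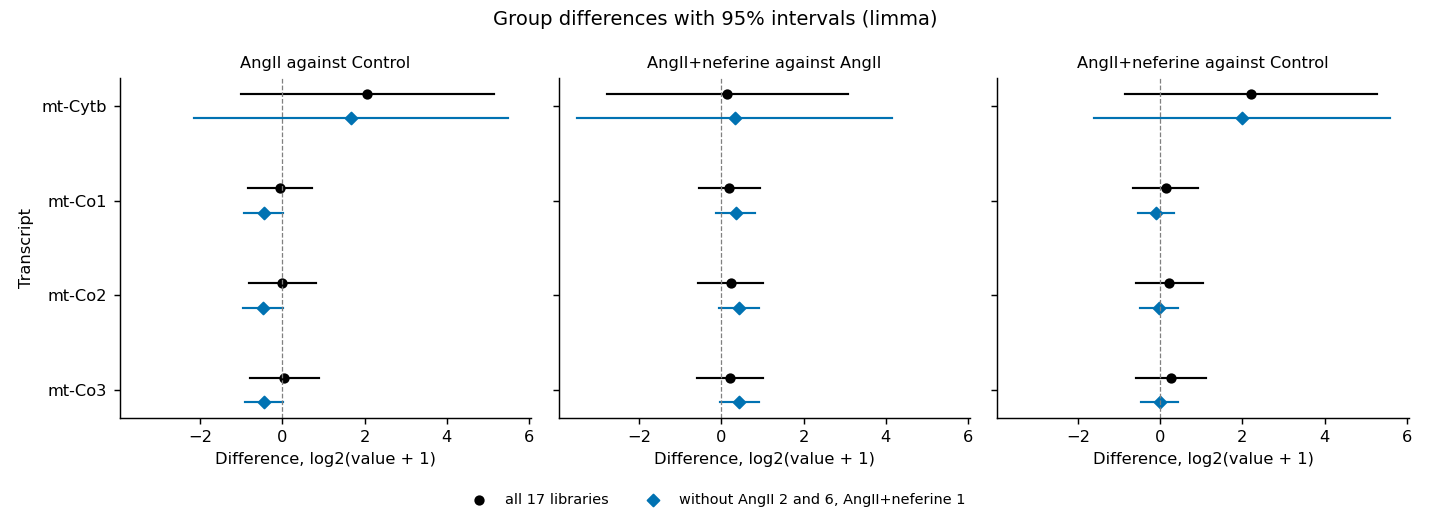
Differences between groups on the log2(value + 1) scale (x axis) with 95% intervals from limma for the 4 members tested, with all 17 libraries (circles) and without AngII replicates 2 and 6 and AngII+neferine replicate 1 (diamonds). With all libraries every interval includes 0. The mt-Cytb intervals are the widest, and Control replicate 4, at 4.04, is in every fit shown.

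Within a library the proportions among the transcripts varied much less than their levels. mt-Cytb had 0.551 to 0.641 times the signal of mt-Co1 in 16 libraries, and 3.00e-04 times in Control replicate 4. Without that library the ratio was 0.606 ± 0.0333 (SD, n = 4) in Control, and the AngII and AngII+neferine means were 0.603 ± 0.0264 (SD, n = 6) and 0.583 ± 0.0235 (SD, n = 6). Over the same 16 libraries the level of mt-Cytb itself ranged from 4554 to 20237.

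mt-Co2 had 0.379 to 0.466 times the signal of mt-Co1 in 15 libraries, against 0.491 in AngII+neferine replicate 1 and 0.627 in AngII replicate 6. mt-Co3 had 0.302 to 0.381 times the signal of mt-Co1 in the same 15 libraries, against 0.427 and 0.534 in those libraries. The ratio of mt-Co3 to mt-Co2 lay between 0.754 and 0.869 in all 17 libraries, with 0.852 in AngII replicate 6 and 0.868 in AngII+neferine replicate 1. In those libraries mt-Co2 and mt-Co3 were thus high together relative to mt-Co1. The ratio of mt-Cytb to mt-Co1 lay between 0.561 and 0.641 in the other libraries, Control replicate 4 left aside. It was within that range in AngII replicate 6 (0.626) and below it in AngII+neferine replicate 1 (0.551). AngII replicate 6 is also the library with the most transcripts listed at 0, and the part of RNA quality in its ratios was not tested.

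**Figure D4:**
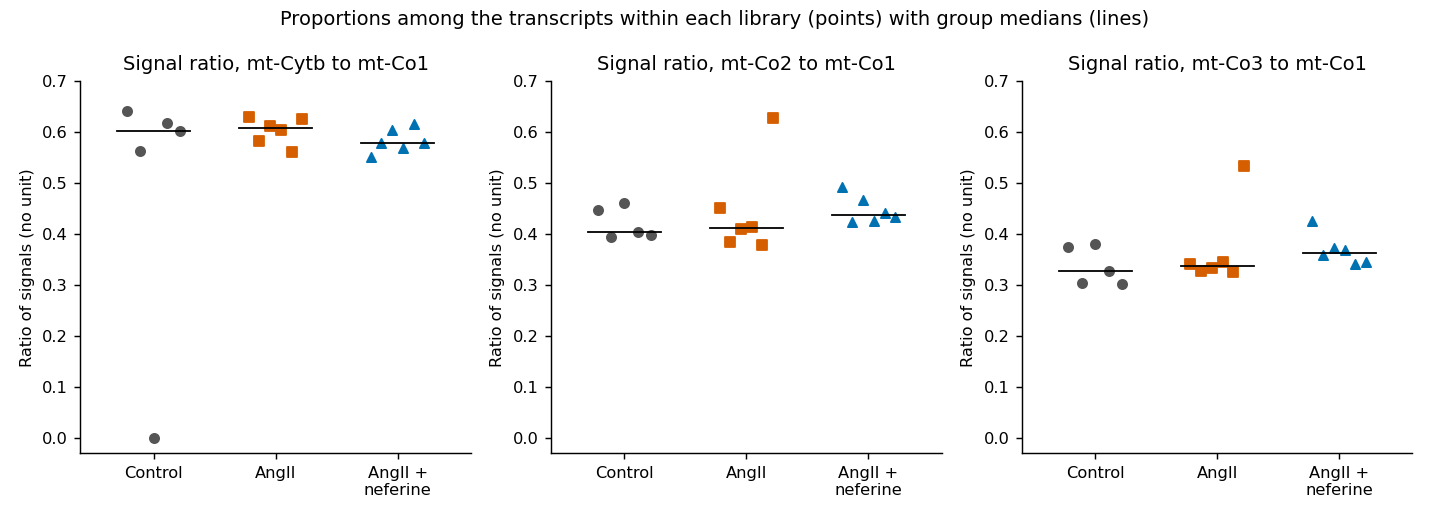
Ratio of the signal of mt-Cytb, mt-Co2 and mt-Co3 to that of mt-Co1 (y axis, no unit) in each library (points) by group, with group medians as lines. Most points lie in a narrow band, and AngII replicate 6 is at 0.627 for mt-Co2 and 0.534 for mt-Co3, while Control replicate 4 is near 0 for mt-Cytb.

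Across the 17 libraries 3 of the 10 pairs that the 5 listed members form passed by Pearson's r and 6 by Spearman's rho on the log2(value + 1) scale (permutation tests with 100000 resamples, two-sided, Benjamini-Hochberg over the 10 pairs). mt-Co2 and mt-Co3 had Pearson's r = 0.995 and Spearman's rho = 0.973 (permutation p = 1e-05 for both, the smallest that can be given; adjusted p = 3.33e-05 and 1e-04). mt-Co1 had r = 0.964 and rho = 0.895 with mt-Co2, and r = 0.956 and rho = 0.868 with mt-Co3 (permutation p = 1e-05 for each r and 3e-05 for each rho; adjusted p = 3.33e-05 and 1e-04). Without AngII replicate 2 and AngII+neferine replicate 1, the libraries farthest from the median, r was 0.988, 0.920 and 0.889 in that order. Within groups, r for these pairs was 0.941 to 0.997 among the AngII libraries and 0.992 to 0.997 among the AngII+neferine libraries, and no value is given for the 5 Control libraries, since 6 were required. All values of a library share its scaling.

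mt-Cytb had r = 0.209 with mt-Co1 (permutation p = 0.331, adjusted p = 0.481) but rho = 0.750 (permutation p = 0.00085, adjusted p = 0.0017), and r = 0.991 without Control replicate 4 and AngII replicate 2. Its r was 0.171 with mt-Co2 and 0.165 with mt-Co3 (adjusted permutation p = 0.543 for both), with rho = 0.762 and 0.713 (adjusted permutation p = 0.00155 and 0.003), and 0.966 and 0.948 without those libraries. mt-Atp6, which is near 0.2 except in AngII replicate 4, had r between -0.228 and 0.0137 with the other members (adjusted permutation p from 0.481 to 0.891) and rho between -0.286 and 0.0233 (adjusted permutation p from 0.379 to 0.930). On shares of library signal its r again did not pass (adjusted permutation p from 0.445 to 0.907), but its rho did with each of the 4, at -0.733 with mt-Cytb, -0.787 with mt-Co1, -0.669 with mt-Co2 and -0.539 with mt-Co3 (adjusted permutation p = 0.00193, 0.00118, 0.00498 and 0.0273). These ranks order mt-Atp6 values that all but 1 lie between 0.160 and 0.278, and shares of 1 total are not independent of each other.

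Of the other listed transcripts, a pair had nearly the same signal as mt-Co2 and mt-Co3. ENSMUST00000188231 differed from mt-Co2 by at most 0.974% in any of the 17 libraries. In Control replicate 1, for example, the values were 4634.3 and 4635.0, in AngII replicate 2 they were 13199 and 13329, and in AngII+neferine replicate 1 they were 15422 and 15569. ENSMUST00000190277 differed from mt-Co3 by at most 1.19%, and was the lower of the pair in 17 of 17 libraries. Among the 34 transcripts with a mean of at least 1000 these 4 rows were the only ones with a partner within 0.05 on the log2 scale in every library. mt-Co1 had no such partner: its nearest, ENSMUST00000189941, had 0.469 to 0.575 times its signal. For mt-Cytb the rule could find only a row that shares its drop in Control replicate 4, and it found none. mt-Atp6, with a mean under 1000, was not searched.

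The files do not say what ENSMUST00000188231 and ENSMUST00000190277 are, or how reads that match several places were counted. The levels of mt-Co2 and mt-Co3 are therefore uncertain to the extent that a near-identical copy shares their reads, and the share of library signal given above counts the members alone. Whether another listed transcript shares reads with mt-Co1, mt-Cytb or mt-Atp6 was not tested.

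**Figure D5:**
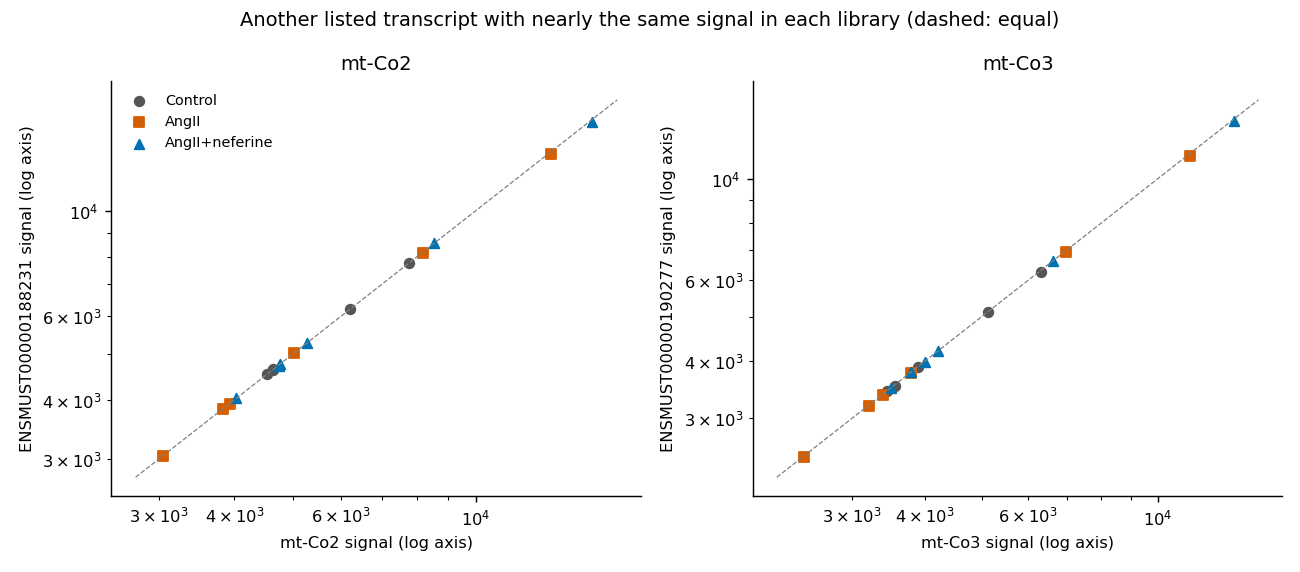
Signal of ENSMUST00000188231 against mt-Co2 and of ENSMUST00000190277 against mt-Co3 (both axes log scale, unit not named), 1 point per library, with a dashed line where the values are equal. All 17 points of each panel lie on the line to within 0.974% and 1.19%.

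The transcripts with the most similar profile were searched among 5538 tested transcripts with a mean of at least 10 that are not members. By the rule as planned, which averages log2(value + 1) over the listed members, ENSMUST00000026050 (Pearson's r = 0.747 over 17 libraries) and ENSMUST00000065373 (r = 0.710) came highest and ENSMUST00000068439 (r = -0.813) and ENSMUST00000110711 (r = -0.797) lowest. That average carries the jumps of mt-Cytb and mt-Atp6. With the mean of mt-Co1, mt-Co2 and mt-Co3 alone, a choice made after the values were seen, the highest were ENSMUST00000188231 (r = 0.996) and ENSMUST00000190277 (r = 0.994), the near-equal rows described above. Their place was largely fixed in advance, since mt-Co2 and mt-Co3 are part of that mean. The next highest was ENSMUST00000082392 (r = 0.988). The lowest were ENSMUST00000026427 (r = -0.958) and ENSMUST00000105413 (r = -0.954). These values describe the best of 5538 and were given no p.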

How the data were processed

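RNA from 17 abdominal aorta samples was depleted of ribosomal RNA and sequenced, per the labels' protocols. Each deposited file holds an abundance signal per transcript (never negative, unit not named). How reads were aligned, assembled and annotated, and on which build, is not stated. Limma appears in the submitters' processing notes, with neither its role nor its version. No count was available.

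Groups and replicate numbers came from the sample titles. The test was limma (version 3.58.1, R version 4.3.3; trended, robust empirical Bayes) on log2(value + 1), all 17 libraries in 1 fit with a term per group, for the 29983 transcripts that reached 1 in 5 or more libraries, with Benjamini-Hochberg adjustment over all of them and a threshold of 0.05. The share fit first scaled each file to the median total. The unit differed from those named in the design, and its limma branch was used. The fit was tested on simulated data. Permutation tests used Python 3.11.15 and numpy 2.4.6.

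Members, lists and alternatives were chosen with earlier results of these data known. The planned pathway and cell type lists could not be used, since the reference table lists no Ensembl identifiers, and no coordinates are given. All members are named; likeness was ranked by Pearson's r. No sequence was available for them here.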

Additional observations from a re-analysis of the deposited data

Results flagged for a closer look

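In 30 groups of 5 or 6 values examined (5 members, their summed share and 4 ratios in 3 groups), 11 times a library lay far from the rest of its group. The rule takes chance to give about 5% of groups. The sum and the ratios are built from the same members, and several of the 11 concern the same library. The 11 are therefore not weighed against that 5%. AngII replicate 2 was far above its group for mt-Cytb (20237.1), mt-Co1 (34717.9) and the summed share (15.2%). AngII+neferine replicate 1 was far above its group for mt-Co3 (13515.9), mt-Atp6 (0.262) and the ratio of mt-Co3 to mt-Co1 (0.427). Its mt-Atp6 value is near 0, and as a share of library signal (4.59e-05%) it was inside the range of its group (4.34e-05% to 4.93e-05%). Control replicate 5 stood apart in the summed share (10.3%), in a group whose lowest value lacks mt-Cytb. mt-Atp6 was at 1679.6 in AngII replicate 4, and the ratio of mt-Cytb to mt-Co1 was 3.00e-04 in Control replicate 4. AngII replicate 6 stood apart in the ratio of mt-Co2 to mt-Co1 (0.627) and of mt-Co3 to mt-Co1 (0.534). The causes were not tested.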

How the results depend on the processing

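Of 600 differences of a member between groups recomputed under the alternatives (pseudocount, filter, scaling, empirical Bayes settings, groups fitted, libraries left out), 0 passed (the lowest limma adjusted p was 0.630) and 47 changed sign. Many of the 600 could not change sign, so the 47 is no measure of stability. The filter, the empirical Bayes settings, the groups fitted and the exact permutation test leave the estimate as it was. So does leaving out a library of the group not compared. Levels with equal library totals repeat the main share fit. For AngII against Control, leaving out libraries gave level differences from -0.0543 to 2.75 (mt-Cytb), -0.45 to 0.0849 (mt-Co1), -0.48 to 0.16 (mt-Co2) and -0.45 to 0.21 (mt-Co3), and share differences from -0.18 to 2.62 (mt-Cytb), -0.46 to 0.0274 (mt-Co2) and -0.43 to 0.0793 (mt-Co3). For AngII+neferine against AngII, levels went from -0.0690 to 0.44 (mt-Cytb), -0.0379 to 0.49 (mt-Co1), -0.0363 to 0.48 (mt-Co2) and -0.0557 to 0.49 (mt-Co3). For AngII+neferine against Control, levels went from -0.10 to 0.28 (mt-Co1), -0.0387 to 0.35 (mt-Co2) and -0.0116 to 0.40 (mt-Co3), and shares from -0.0112 to 2.79 (mt-Cytb), -0.11 to 0.18 (mt-Co1), -0.0499 to 0.25 (mt-Co2) and -0.0228 to 0.30 (mt-Co3). The AngII against Control level of mt-Co3 turned to -0.0608 with equal library totals, -0.19 with quantile normalization and -0.0556 with equal totals of the other transcripts, and its AngII+neferine against Control level to -0.0638 with quantile normalization, which sets mt-Co1 to 0 because it ranks first everywhere. The other causes were not tested.

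With a replicate block, the AngII against Control levels were 0.0442 (mt-Co1) and 0.11 (mt-Co2) and the share of mt-Co3 0.0369, with 0 members called. Same-numbered samples did not deviate together over all transcripts tested (correlations from -0.147 to 0.0640). A link between them in a part of the transcripts was not tested. Of the 10 pairs of members, 3 passed by Pearson's r and 3 by Spearman's rho without AngII replicates 2 and 6 and AngII+neferine replicate 1, 3 and 10 on shares of library signal, and 6 and 6 without Control replicate 4 and AngII replicate 4, a choice made after seeing the data.

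Calls over all transcripts moved more. AngII against Control went from 0 to 7 with only those groups fitted, 6 without the 3 libraries named above and 12 without AngII replicate 6. AngII+neferine against AngII went from 0 to 2, 15 and 11 in the same order. AngII+neferine against Control went from 11 to 26, 106 and 31 in that order, 4 without the filter, 2 with equal totals, 7 with equal totals of the other transcripts and 0 with the replicate block, and leaving out 1 library gave 0 to 31. No read depth is known, so no limit of detection can be given for mt-Atp6, and the unnamed unit allows no comparison between genes.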
